A study of Mus musculus with 6 samples.

Results

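The entries described here are 7 rows of the deposited miRNA count table, taken by name: mmu-miR-3470a, mmu-miR-3470b, mmu-miR-6240, mmu-miR-690, mmu-miR-2137, mmu-miR-5126 and mmu-miR-6538, written below without the prefix for mouse. They are 7 of 199 mature miRNAs in the table. They were chosen by their counts in these same libraries, few with PBS and more with BMP4, among entries that are known only from mouse or resemble repeats. Their BMP4 against PBS values are therefore a description and carry no test. The libraries are small RNA libraries of mouse small intestinal organoids, epithelial cultures grown from isolated crypts. In 3 libraries the organoids had received BMP4, a secreted growth factor of the intestinal mesenchyme, at 0.5 µg/ml over 4 days. The other 3 libraries came from organoids given PBS. The strain, age and genotype of the mice behind these cultures were not given in the sources used here, and neither was whether replicate libraries came from separate cultures, so the spread given below may be technical.

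A canonical miRNA is cut from a hairpin transcript by Drosha and then by Dicer, and the arm that is kept guides Argonaute to mRNAs through its seed, bases 2 to 8. Conserved hairpins usually yield reads from both arms, which miRBase names with the suffixes 5p and 3p. Many late entries of miRBase rest on reads of a single arm, and some of them lie in repeats or in fragments of other abundant RNAs. A read count on such a mature sequence cannot tell a product of the named hairpin from a read of any other RNA with the same bases.

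The sequences show how unlike each other these entries are, and why a read could come from elsewhere for some of them. RefSeq gave the mature sequence of 6 of the 7 entries (177 of 199 in the table), with positions on GRCm38.p6. Capitals mark the seed, and each sequence runs from its 5′ to its 3′ end.
miR-3470b: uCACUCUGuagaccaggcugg
miR-690: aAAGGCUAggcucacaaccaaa
miR-6240: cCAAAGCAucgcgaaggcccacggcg
miR-2137: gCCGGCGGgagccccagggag
miR-5126: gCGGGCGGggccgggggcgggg
miR-6538: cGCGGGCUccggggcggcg
No seed was shared among the 6, nor with any other matched entry of the table. The longest run of bases common to any 2 of these sequences was 7 nt, between miR-5126 and miR-6538.

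The hairpins lie on separate chromosomes or far apart. On GRCm38, GENCODE M21 places Mir3470a at chr6:83090311-83090387 on the minus strand and Mir6240 at chr5:114851948-114852064 on the plus strand, both outside other annotated genes. Mir690 (chr16:28599935-28600043, minus strand) lies in an intron of Fgf12, Mir2137 (chrX:72992079-72992144, plus strand) in an intron of Zfp185, and Mir6538 (chr12:26414901-26415010, minus strand) in an intron of Rnf144a, each on the strand of that gene. Mir3470b (chr16:44013852-44013977, plus strand) lies within an intron of Gramd1c but on the opposite strand. Mir5126 (chr1:84695839-84695915, plus strand) overlaps an exon with UTR of Dner, also on the opposite strand.

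All 7 names lack an arm suffix, while 16 of the other entries (8.33% of them) lack one. Among these 16 were other late entries, such as miR-5099, miR-1983, miR-3473b, miR-3968 and miR-3970. Other late entries, such as miR-3068-3p and miR-1981-5p, had a suffix. The lack of one is therefore not particular to the 7. The repeat character differed between the entries. The miR-3470b sequence is that of a B1 element, a short interspersed repeat of rodents, read on its minus strand. It occurred whole, in sense, in annotated transcripts of 546 other genes and in antisense in those of 497. The mature miR-690 sequence occurred in sense in only 3 other genes, BC018473, Fundc2 and Gm42826. Its hairpin, in contrast, had at least 18 consecutive bases in common with transcripts of 506 other genes. A likeness of the miR-6240 hairpin to a part of 28S ribosomal RNA is background and was not examined here. The mature miR-6240 sequence matched no other annotated gene, and its hairpin shared an 18-nt stretch with 18. The miR-5126 hairpin shared one with 3 genes, and the hairpins of miR-2137 and miR-6538 with 0. Across the 171 other matched entries, the median number of other genes holding the mature sequence was 0, and 2 of these entries had 2 or more such genes. In 32851 RefSeq promoter windows (250 bases before to 50 after a gene start), the miR-3470b sequence stood in sense in 0.00304% and in antisense in 0.0274%.

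Base composition set 3 of the entries apart. The GC content of the mature sequence was 100% in miR-5126, 94.7% in miR-6538, 85.7% in miR-2137 and 69.2% in miR-6240. The first 3 held the highest values among the 177 matched entries, while miR-6240 was sixth and within the range of the others. Of the 171 others, the highest value was 70.0% and the median 47.6%. miR-3470b, at 57.1%, and miR-690, at 45.5%, lay within the usual range.

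The predicted folds were mixed. RNAfold gave the miR-6240 hairpin -0.211 kcal/mol per nt, the second weakest fold among 170 hairpins. The miR-690 hairpin, at -0.266 kcal/mol per nt, was sixth weakest. The miR-5126 hairpin had the third strongest fold at -0.629 kcal/mol per nt, and miR-2137 (-0.373) and miR-6538 (-0.470) lay nearer the median of the others, -0.436. The share of mature bases that were paired ran from 68.2% in miR-690 and miR-5126 to 81.0% in miR-2137. All 5 lay below the median of the 165 other entries, 85.7%.

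**Figure D1:**
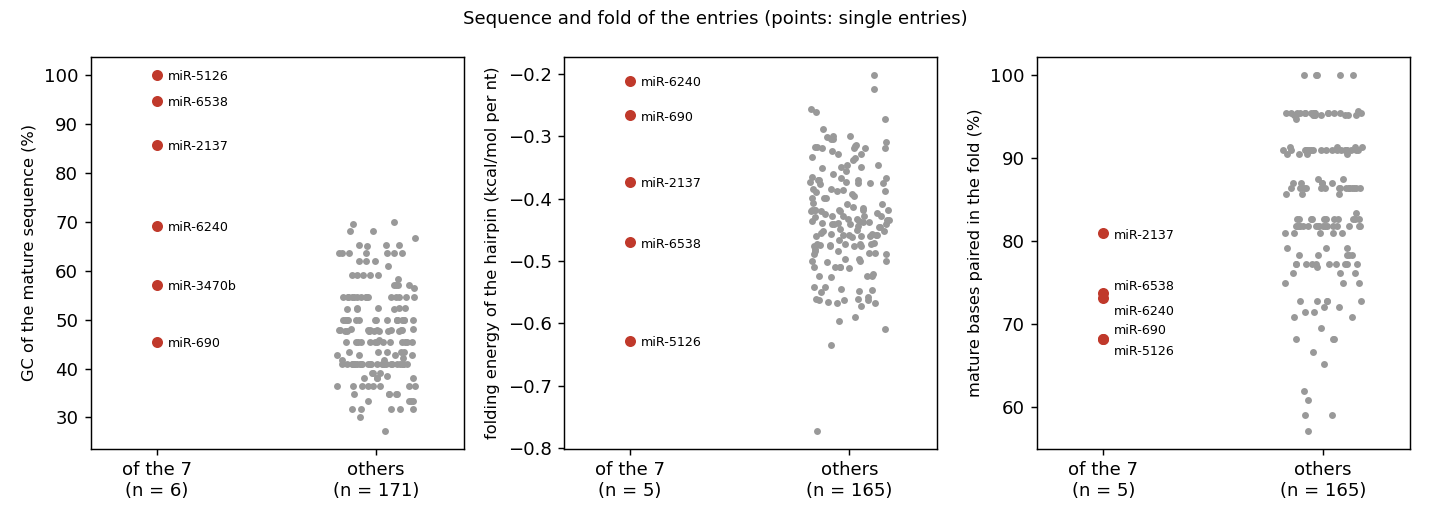
GC content of the mature sequence (%), RNAfold energy of the hairpin (kcal/mol per nt) and share of mature bases paired in that fold (%), with the entries described here at left in each panel and all other matched entries of the table at right. Each point is 1 entry, and the GC of miR-5126, miR-6538 and miR-2137 lies above the highest other value of 70.0%.

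Before the values of the entries, the libraries themselves need a short account. The BMP4 libraries held 998854 to 3486409 counts and the PBS libraries 259811 to 2248866, with the lowest total in PBS replicate 1. All 7 epithelial miRNAs fixed as markers were in the table. Summed, they had 80.4 to 82.5% of the counts of BMP4 libraries and 49.1 to 50.9% in PBS libraries. Only miR-215-5p (mean 567300 CPM in BMP4 against 147600 in PBS) and miR-194-5p (86820 against 53920) had the higher mean in BMP4. The mean was lower in BMP4 for miR-192-5p (126900 against 172500), miR-200b-3p (26860 against 87450), miR-200c-3p (6156 against 28000), miR-141-3p (164.8 against 405.9) and miR-375-3p (1185 against 6988). Of 4 stromal and 2 erythroid markers 0 were in the table. Of 5 immune, 2 endothelial, 2 muscle and 2 neuronal markers 1 each was in the table, and 1 of 1 for liver, and none of these held over 0.0145% of a library. The miRNA with most counts in BMP4 libraries, miR-215-5p, took 53.2 to 60.6% of them, against 12.8 to 16.0% in PBS libraries. BMP4 replicate 2 stood apart from the other BMP4 libraries, with the lowest scaling factor by the trimmed mean of M values (TMM), 0.375, against 0.600 and 0.651. In bulk libraries, more cells of a type and more RNA per cell cannot be told apart, which holds for every value below.

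All 7 entries were rare in both groups. Together they had 460, 204 and 1308 counts in BMP4 replicates 1 to 3, against 15, 122 and 101 counts in PBS replicates 1 to 3. As CPM, counts scaled to the total of the table with no further factor, the sum was 428, 204 and 375 in the BMP4 libraries, against 57.7, 54.3 and 47.5 in the PBS libraries. The PBS libraries were close to each other despite their unequal depth, and every BMP4 library lay above them. The means were 336 ± 117 CPM in BMP4 and 53.2 ± 5.23 CPM in PBS (SD, n = 3 each), 6.32 times as high in BMP4. Even so, the sum was at most 0.0428% of a library. By mean CPM in PBS, 5 of the entries filled the lowest 5 ranks of the 199, and in BMP4 all 7 ranked between 76 (miR-2137) and 133 (miR-5126). Low ranks in PBS follow from the choice of entries with few PBS counts.

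No mature sequence of miR-3470a was at hand, so its likeness to a B1 element was not examined. miR-3470a had 61, 47 and 161 counts in BMP4 replicates 1 to 3, against 0, 6 and 6 counts in PBS replicates 1 to 3. That is 56.8, 47.1 and 46.2 CPM in BMP4, against 0, 2.67 and 2.82 CPM in PBS. The BMP4 libraries lay close together, with overlapping 95% Wilson intervals of 44.2 to 73.0, 35.4 to 62.6 and 39.6 to 53.9 CPM. In PBS replicate 1, a count of 0 allows up to 11.6 CPM when the limit is set at 3 counts, and the 95% Wilson interval drawn in the plot of CPM by library reaches 14.8 CPM. The mean was 27.3 times as high in BMP4, a ratio that rests on 12 PBS counts in all. Such intervals and limits hold for the error of counting alone, because reads copied by PCR are not separate molecules.

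miR-3470b had 44, 46 and 129 counts in BMP4 replicates 1 to 3, against 0, 14 and 10 counts in PBS replicates 1 to 3. Its CPM were 41.0, 46.1 and 37.0 in BMP4, against 0, 6.23 and 4.70 in PBS, and the groups did not overlap. The ratio of miR-3470a to miR-3470b counts was 1.39, 1.02 and 1.25 in BMP4 replicates 1 to 3, against 0.429 and 0.600 in PBS replicates 2 and 3, with no count of either in PBS replicate 1. Both entries carry the same family name, and reads common to them can be counted for either, so this ratio and the split between them are uncertain.

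miR-690, studied in mouse as a miRNA of macrophage exosomes, differed least. It had 30, 28 and 109 counts in BMP4 replicates 1 to 3, against 2, 32 and 31 counts in PBS replicates 1 to 3. In CPM the BMP4 libraries were nearly equal, at 27.9, 28.03 and 31.3, and the PBS libraries had 7.70, 14.2 and 14.6. The groups did not overlap, with a mean 2.39 times as high in BMP4 (29.1 ± 1.90 CPM) as in PBS (12.2 ± 3.87 CPM, SD, n = 3 each). The interval of PBS replicate 1, 2.11 to 28.1 CPM from 2 counts, nevertheless reached the BMP4 values.

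In the other 4 entries BMP4 replicate 2 was lower than the other BMP4 libraries. miR-2137, the most abundant of the 7, had 166, 41 and 471 counts in BMP4 replicates 1 to 3, against 8, 40 and 31 counts in PBS replicates 1 to 3. Its CPM were 155, 41.1 and 135 in BMP4, against 30.8, 17.8 and 14.6 in PBS. BMP4 replicate 2 (Wilson interval 30.3 to 55.7 CPM) was thus far under the other BMP4 libraries and overlapped, within counting error, with PBS replicate 1 (15.6 to 60.8 CPM). In TMM-scaled CPM, BMP4 replicate 2 had 110 and PBS replicate 1 had 15.7.

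miR-6240 had 84, 32 and 230 counts in BMP4 replicates 1 to 3, against 2, 7 and 13 counts in PBS replicates 1 to 3. In CPM this was 78.2, 32.0 and 66.0 in BMP4, against 7.70, 3.11 and 6.11 in PBS. The groups did not overlap, and the mean was 10.4 times as high in BMP4.

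miR-6538 had 49, 6 and 118 counts in BMP4 replicates 1 to 3, against 1, 13 and 1 counts in PBS replicates 1 to 3. Its CPM were 45.6, 6.01 and 33.8 in BMP4, against 3.85, 5.78 and 0.470 in PBS. BMP4 replicate 2 and PBS replicate 2 were nearly equal, and their intervals (2.75 to 13.1 and 3.38 to 9.89 CPM) overlapped. Out of the counts left without miR-215-5p these libraries had 15.3 and 6.84 CPM.

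miR-5126 had 26, 4 and 90 counts in BMP4 replicates 1 to 3, against 2, 10 and 9 counts in PBS replicates 1 to 3. Its CPM were 24.2, 4.01 and 25.8 in BMP4, against 7.70, 4.45 and 4.23 in PBS. On this unscaled measure it was the only one of the 7 whose groups overlapped, because BMP4 replicate 2 lay under all PBS libraries. In TMM-scaled CPM, BMP4 replicate 2 had 10.7, against 3.9, 2.5 and 2.2 in PBS replicates 1 to 3. Out of the counts left without miR-215-5p it had 10.2 CPM, against 8.83, 5.3 and 5.0. The overlap was thus absent on both of these scales. Without BMP4 replicate 2 the unscaled mean of miR-5126 was 25.0 CPM in BMP4, against 18.01 CPM with it.

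**Figure D2:**
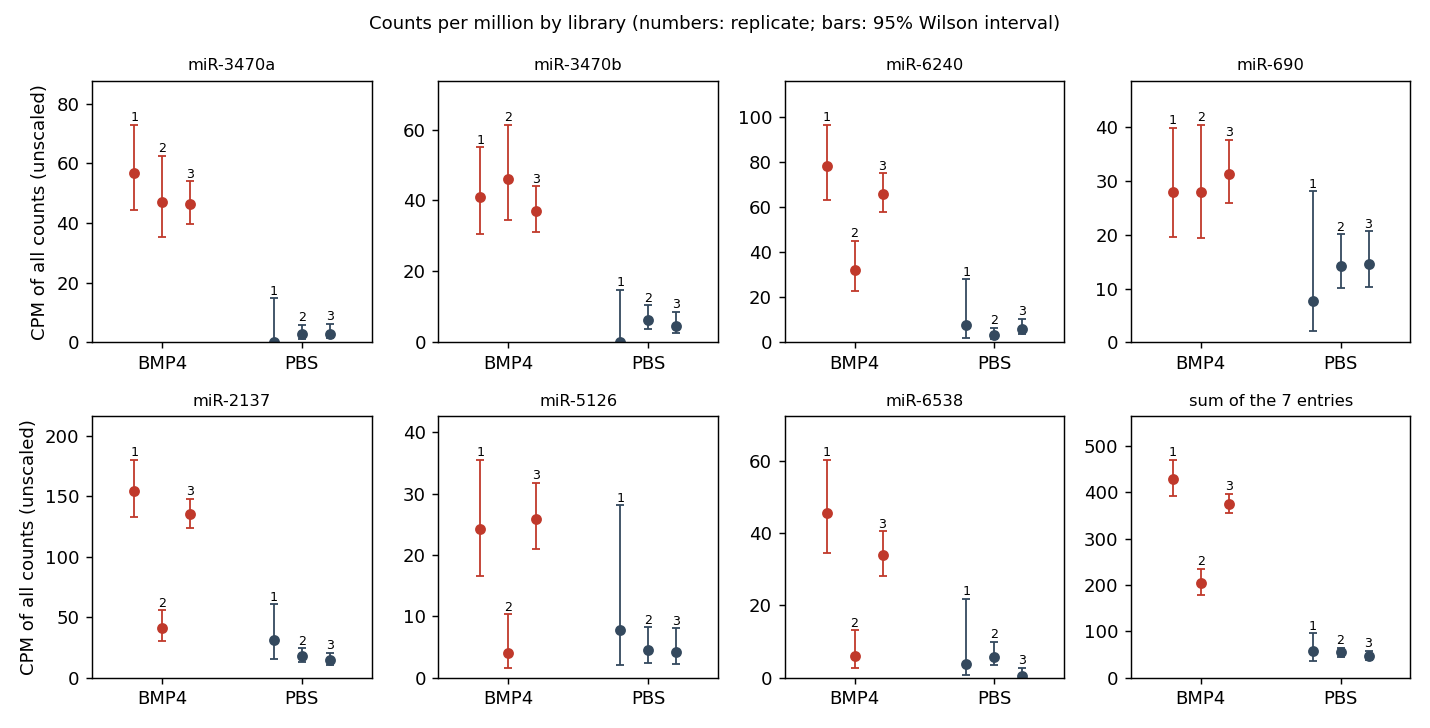
CPM of all counts (vertical axis, not rescaled) for each of the 7 entries and for their sum, in the 3 BMP4 libraries (left) and 3 PBS libraries (right). Points are libraries with their replicate number, bars are 95% Wilson intervals, and BMP4 replicate 2 is low for miR-6240, miR-2137, miR-5126 and miR-6538 but not for miR-3470a, miR-3470b or miR-690.

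In 6 of the 7 entries every BMP4 library was above every PBS library in CPM. This held for 12 of all 199 entries (6.03%), the 6 included. In TMM-scaled CPM it held for 23.6% of the 195 entries that passed a filter on low counts. Since the entries were picked for being higher, nothing is read from these counts. Low values in PBS replicate 1 rest on a library of 259811 counts, and the part of depth in these differences was not tested.

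The entries did not all vary together. Between BMP4 libraries, a comparison on which the entries were not chosen, BMP4 replicate 2 was set against the mean of BMP4 replicates 1 and 3. On the log2 scale of CPM (0.5 added), the difference was -2.63 for miR-6538, -2.50 for miR-5126, -1.81 for miR-2137 and -1.16 for miR-6240. It was -0.13 for miR-3470a, -0.08 for miR-690 and 0.24 for miR-3470b. The median over the 191 entries with 20 or more BMP4 counts was -0.90. From the lowest, miR-6538, miR-5126 and miR-2137 ranked 13, 14 and 29 of the 191 entries. miR-6240 ranked 79, near the median, and miR-3470a, miR-690 and miR-3470b ranked 137, 140 and 158. With 1 library on one side, this has no replicate check. Without BMP4 replicate 2 the mean in BMP4 was 39.7 CPM for miR-6538, 145 CPM for miR-2137 and 72.1 CPM for miR-6240, against 28.5, 110 and 58.7 CPM with it.

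In counts, which need no scaling, miR-2137, miR-5126, miR-6240 and miR-6538 together had 325, 83 and 909 counts in BMP4 replicates 1 to 3 and the other 3 entries 135, 121 and 399. The ratio of these sums was 2.41, 0.686 and 2.28 in BMP4, against 6.50 (13 to 2 counts), 1.35 and 1.15 in PBS replicates 1 to 3. This grouping was made after the values were seen. Over the 165 other entries with a known sequence, the Spearman correlation of GC content with the replicate 2 difference was -0.04, a description across entries that share the same libraries. For the 19 others with a GC content of 60% or more the median difference was -1.25, and they ran from -3.69 to 0.60.

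**Figure D3:**
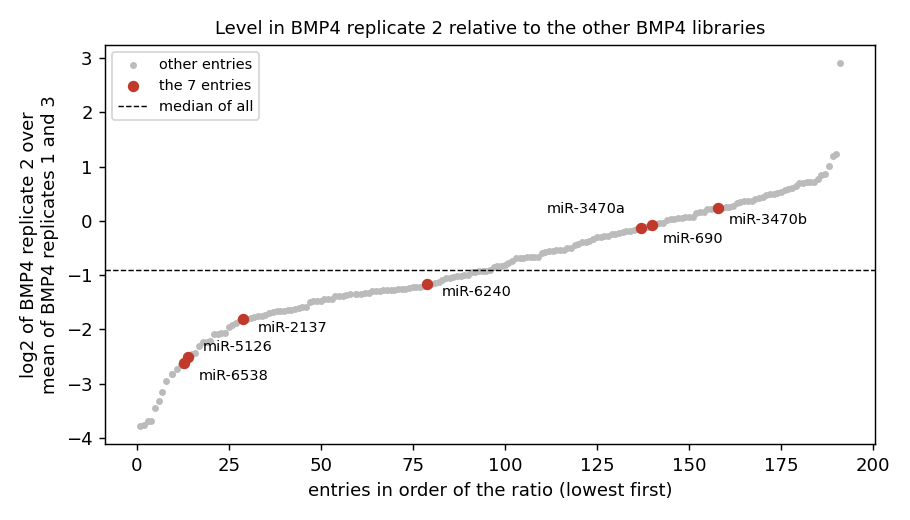
Log2 ratio of the CPM in BMP4 replicate 2 to the mean of BMP4 replicates 1 and 3 (vertical axis) for 191 entries ordered by that ratio (horizontal axis), with the 7 entries in red and the median of all, -0.90, as a dashed line. miR-6538, miR-5126 and miR-2137 lie well under the median, miR-6240 (-1.16) lies near it, and miR-3470a, miR-690 and miR-3470b above it.

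How large the BMP4 to PBS difference was depended on the library scale. A fit with edgeR was run over the whole table, in which a filter on low counts kept 195 of 199 miRNAs. It kept 6 of the 7 entries and left out miR-6538. With TMM scaling, which holds the bulk of miRNAs at no change, the log2 fold change of BMP4 over PBS was 6.08 ± 0.55 (SE, n = 3 per group) for miR-3470a, the largest of the 195. It was 5.32 ± 0.50 for miR-6240, 4.89 ± 0.54 for miR-3470b and 4.27 ± 0.48 for miR-2137, the next 3 in rank. miR-5126 had 3.68 ± 0.53 and ranked 7, and miR-690 had 2.93 ± 0.43 and ranked 11. With no filter, miR-6538 had 4.78 ± 0.72.

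By the same fit 17.4% of the 195 tested miRNAs were called higher at an adjusted p under 0.05. All 6 fitted entries were among these, as their choice would have it. Scaled to total counts alone, which sets no group of miRNAs to no change, the values were lower throughout. They were 4.28 ± 0.53 for miR-3470a, 3.56 ± 0.55 for miR-6240, 3.06 ± 0.52 for miR-3470b, 2.54 ± 0.56 for miR-2137, 1.98 ± 0.67 for miR-5126 and 1.13 ± 0.42 for miR-690. On that scale 6.67% of the 195 were called higher, the 6 entries included. Over all 195 the median log2 fold change stood at 0.03 with TMM, and over the 6 entries at 4.58. On the scale of total counts these medians were -1.78 for all and 2.80 for the 6. The order of the 6 was thus kept on both scales, and each stayed above 0.

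**Figure D4:**
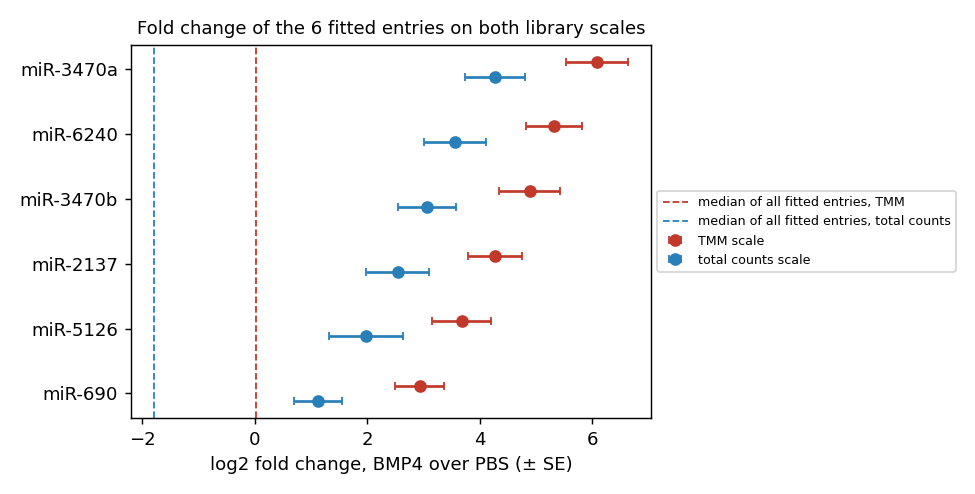
Log2 fold change of BMP4 over PBS (horizontal axis, ± SE, n = 3 per group) for the 6 fitted entries with TMM scaling (red) and with total counts as the scale (blue). Dashed lines are the medians of all 195 miRNAs, 0.03 with TMM and -1.78 with total counts, and each entry lies to the right of both.

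The denominator mattered too. Out of the counts left without miR-215-5p, the 7 entries together made up 767 CPM in BMP4 and 62.3 CPM in PBS. What part the share of miR-215-5p or of the epithelial markers has in the rises was not tested.

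Likeness of pattern was measured as the root mean square difference of TMM log2 CPM over the 6 libraries, each miRNA centred on its own mean. Nearest to miR-3470a were miR-3470b (0.45), miR-6240 (0.86) and miR-215-5p (1.01), where the median over all others was 2.93. Nearest to the sum of the 7 entries, among the rest of the table, were miR-194-1-3p (0.42), miR-215-5p (0.53) and miR-215-3p (0.60), miRNAs of the mature intestinal epithelium, against a median of 2.31. The measure takes in the BMP4 to PBS difference, on which the entries were chosen. Any reads counted for both miR-3470a and miR-3470b would also make their profiles alike.

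Other late or repeat-like entries were looked up as well. Of the 20 other entries with a miRBase number of 1000 or more, 3 were called higher by edgeR with TMM, 0 lower, and 17 did not pass, with a median log2 fold change of 0.54. With total counts 0 of the 20 were called higher and 11 lower. These counts cannot be set against those of the 7, which were chosen for rising. The 3 called higher were miR-3068-3p (2.11 ± 0.51, SE, n = 3 per group, adjusted p = 0.00304), miR-5099 (2.05 ± 0.39, adjusted p = 0.000357) and miR-1981-5p (1.67 ± 0.53, adjusted p = 0.0211). None of these 3 passed with total counts, with values of 0.35, 0.08 and -0.15.

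Among the other repeat-like entries of the table was miR-3473b, whose sequence is that of the start of a B2 element, another rodent repeat. It is shown because capitals mark the 18 bases it shares with the Mir690 hairpin.
miR-3473b: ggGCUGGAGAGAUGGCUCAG
It matched transcripts of 344 other genes in sense, and its hairpin shared an 18-nt stretch with 1051. miR-3473b had 12, 4 and 57 counts in BMP4 replicates 1 to 3, against 18, 97 and 83 counts in PBS replicates 1 to 3. Its log2 fold change was -0.34 ± 0.42 (SE, n = 3 per group) and was not called (edgeR adjusted p = 0.574). The related miR-3473e was at -0.18 ± 0.44 (adjusted p = 0.786). With total counts both were called lower, at -2.09 (adjusted p = 0.00221) and -1.94 (adjusted p = 0.00373). The mature sequence of miR-1195 shared an 18-nt stretch in sense with transcripts of 626 other genes, more than that of miR-3473b (512). It had 12, 1 and 27 counts in BMP4 replicates 1 to 3, against 4, 36 and 9 counts in PBS replicates 1 to 3. Its log2 fold change was 1.02 ± 0.57 with TMM (SE, n = 3 per group, edgeR adjusted p = 0.202) and -0.66 with total counts (adjusted p = 0.370), so it passed on neither scale and its sign changed between them. The same held for miR-1191a, whose hairpin shared an 18-nt stretch with 125 other genes. Its log2 fold change was 1.08 ± 0.46 with TMM (SE, n = 3 per group, edgeR adjusted p = 0.084) and -0.78 with total counts (adjusted p = 0.108). Whether these entries differ from miR-3470a, miR-3470b or miR-690 in their response was not tested. Likewise, of the 20 other entries with a GC content of 60% or more, 0 were called higher with TMM, 2 lower and 18 did not pass, and their median was -0.29. With total counts 0 were called higher and 16 lower, with a median of -2.05. These features were looked at after the values were seen.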

How the data were processed

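Small RNA libraries of organoids given BMP4 (n = 3) or PBS (n = 3) were profiled. The deposited values are raw counts, which the authors made by trimming reads, keeping those of miRNA length and counting them on miRBase mature sequences with the miRDeep2 quantifier at defaults. The labels name edgeR. For genome build, miRBase release and the rule that kept 199 miRNAs, the sources used here state nothing. Total counts were 259811 to 3486409 per library, where 3 counts were worth 11.6 to 0.861 CPM. Counts were fitted with edgeR 4.0.16 in R 4.3.3 (filterByExpr, TMM, quasi-likelihood F test, Benjamini-Hochberg over 195 miRNAs, threshold 0.05), checked on simulated counts. Standard errors were taken from fold change and F statistic. Alternatives were total counts, upper quartile and RLE factors, DESeq2 1.42.0, no filter, a prior count of 2, factors without the entries, a replicate block, each library left out, and CPM without miR-215-5p. Sequences came from RefSeq (GRCm38.p6) and GENCODE M21, and hairpins were folded with RNAfold 2.7.2. Transcript matches left out miRNA genes and genes at the entry's own locus. Plots used Python 3.11.15 and matplotlib 3.10.9. The entries and lists were chosen with earlier results of these data known. Named were the 7 entries, the 3 most similar profiles, called entries numbered 1000 or more and miR-215-5p. miR-3473b, miR-3473e, miR-1195 and miR-1191a were added after their values were seen.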

Additional observations from a re-analysis of the deposited data

How the results depend on the processing

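With total counts as the scale 171 miRNAs were called (13 higher, 158 lower) against 59 with TMM (34 higher, 25 lower). For the 6 fitted entries the median was then 2.80 on the log2 scale, against 4.58. The summed level of the 7 entries was 767 CPM in BMP4 and 62.3 CPM in PBS once miR-215-5p was left out of the denominator, against 336 and 53.2 CPM. With single libraries left out, 35 to 71 miRNAs were called, 24 to 38 higher and 11 to 33 lower. The lowest of each range came without PBS replicate 3 and the highest without BMP4 replicate 2. The number lower was 13 without BMP4 replicate 3, 16 without PBS replicate 1 and 16 without PBS replicate 2. The cause was not tested. Over the same 6 settings the median of the fitted entries was 4.51 to 5.14, and miR-5126 could not be fitted without BMP4 replicate 3. The summed level was 290 to 402 CPM in BMP4 and 50.9 to 56.0 CPM in PBS. No entry changed direction under any alternative run. With a prior count of 2, miR-3470a was at 5.36 and miR-6240 at 4.89. Whether replicate numbers pair the samples is not known. Deviations of equal numbers correlated at 0.04, 0.09 and -0.01, and those of unequal numbers at -0.16 to 0.10. With 3 libraries per group, such correlations cannot decide it. With the replicate number as a block 49 miRNAs were called, 27 higher and 22 lower, and the median of the entries was 4.56. Matches over the whole genome were not run. With PBS counts of 0 to 40 per library, the size of each rise is uncertain.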
